A study of Mus musculus with 21 samples.

Results

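The genes described are 9 enzymes of the urea cycle and of nitrogen handling in mouse liver, taken as the rows of the count table whose Ensembl identifier carries the symbol Cps1, Otc, Ass1, Asl, Nags, Glul, Gls2, Sds or Got1 in GENCODE M21. All 9 were found among the 46078 identifiers of the table, and all 9 passed the filter on low counts that left 14370 genes to test. The libraries were poly(A) RNA from the liver of male mice at least 9 weeks old, held under calorie restriction on a defined amino acid diet for 3 days and then for 2 days on 1 of 3 diets. The diets were the control diet (CTR), the same diet without cysteine (no-Cys) and the same diet without tryptophan (no-Trp), the remaining amino acids being raised in proportion in both depleted diets. The mice were knockouts of Cse (symbol Cth, cystathionine γ-lyase, which makes cysteine from cystathionine; 129/C57BL/6 background), called KO, or comparison animals labelled WT, which the study's text describes as heterozygous. The 21 libraries were WT CTR (n = 3), KO CTR (n = 4), WT no-Cys (n = 4), KO no-Cys (n = 3, numbered 1, 3 and 4), WT no-Trp (n = 2) and KO no-Trp (n = 5), each a biological replicate by its title.

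The urea cycle disposes of the ammonia that is freed when amino acids are broken down, and in mammals the complete cycle runs in hepatocytes. In the mitochondrion, Nags makes N-acetylglutamate, the obligatory activator of carbamoyl phosphate synthetase Cps1, and ornithine transcarbamylase, Otc, joins carbamoyl phosphate to ornithine to give citrulline. In the cytosol, Ass1 and Asl convert citrulline and aspartate to arginine and fumarate. Ammonia that escapes the periportal cycle is caught by glutamine synthetase, Glul, in the hepatocytes around the central vein, while the liver glutaminase, Gls2, frees ammonia from glutamine. Sds frees ammonia from serine, and Got1, the cytosolic aspartate aminotransferase, moves amino groups between glutamate and aspartate.

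Total counts per library ran from 8889951 to 27230852. Cth was at 108 to 452 CPM (the count relative to the library total, scaled by the trimmed mean of M-values, TMM) in the 9 WT libraries and at 6.34 to 14.99 CPM in the 12 KO libraries, so no library went against its genotype label. The 9 genes together took 0.634% to 1.35% of the counts of a library. The lowest count of any of them in any library was 366 (Nags), and Otc never had fewer than 1976 counts, so counting error was small beside the differences given below for Otc. In the summed level of 7 hepatocyte markers (Alb, Apoa1, Ttr and others; 7 of the 8 listed were in the table) the KO no-Cys libraries stood at 66510, 39910 and 44190 CPM for replicates 1, 3 and 4, against 58350 to 107600 CPM in the other 18. The markers of other organs were low in all libraries, with summed levels of at most 0.465 CPM for 5 kidney tubule genes, 1.24 CPM for 5 pancreas genes and 3.66 CPM for 5 muscle genes. The 5 adipocyte genes summed to 3.48 to 38.5 CPM, most of it Plin4, while Lep was at 0 throughout and Adipoq at 0.817 CPM or less.

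Otc had the largest difference of the 9 genes between KO no-Cys liver and WT no-Cys liver, and in both Otc and Glul (2 of the 9) all 3 KO no-Cys libraries lay below the other 18, as they did in 3.88% of all genes tested. It lies on the X chromosome (GRCm38 chrX:10252305-10321024, plus strand), and its RefSeq window from 250 bases before to 50 bases after the annotated start was shown because Otc had the largest fall. The same window of Glul was shown as the other member with lower mRNA in KO no-Cys, and that of Got1 as the member that varied most between animals. Such windows were found for 5 of the 9 genes (Otc, Ass1, Nags, Glul and Got1). The sequences are from RefSeq on GRCm38.p6, 5′ to 3′ on the strand of the gene, at chrX:10252055-10252354 (plus), chr1:153899679-153899978 (plus) and chr19:43524556-43524855 (minus). Capitals mark matches to the letters searched on both strands, TTNNGNAA (C/EBP, with TTGCGCAA as its strict form), TGATGNAA (the composite element of C/EBP and ATF factors), TGACGTCA (the cAMP response element), CAAAGTCCA (HNF4) and TATAAA (the TATA box).
Otc: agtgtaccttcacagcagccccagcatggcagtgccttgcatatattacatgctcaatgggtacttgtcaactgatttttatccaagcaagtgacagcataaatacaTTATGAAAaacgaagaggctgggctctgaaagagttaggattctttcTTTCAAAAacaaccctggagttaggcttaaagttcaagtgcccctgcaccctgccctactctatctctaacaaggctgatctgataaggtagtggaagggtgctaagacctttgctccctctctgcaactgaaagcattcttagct
Glul: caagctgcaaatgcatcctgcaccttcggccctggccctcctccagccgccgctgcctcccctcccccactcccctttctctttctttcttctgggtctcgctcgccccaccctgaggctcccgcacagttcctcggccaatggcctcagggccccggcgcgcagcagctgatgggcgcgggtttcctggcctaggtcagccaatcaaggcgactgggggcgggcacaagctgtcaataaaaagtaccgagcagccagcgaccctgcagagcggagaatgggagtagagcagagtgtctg
Got1: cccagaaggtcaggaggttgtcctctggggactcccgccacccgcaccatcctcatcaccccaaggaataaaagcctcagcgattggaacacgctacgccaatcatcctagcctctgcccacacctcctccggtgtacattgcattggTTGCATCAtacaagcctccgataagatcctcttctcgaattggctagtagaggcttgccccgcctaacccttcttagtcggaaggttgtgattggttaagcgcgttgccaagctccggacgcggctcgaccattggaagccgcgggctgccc

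The Otc window held the loose C/EBP letters at positions -143 and -96 from the start, as TTATGAAA and, on the other strand, TTTCAAAA. These letters are common, since 40.7% of the 32851 RefSeq windows held them. The Got1 window held the composite C/EBP and ATF letters at position -102 as TTGCATCA, read on the other strand, which 3.97% of all windows had. Nags had a loose C/EBP match at position -231, and the Glul and Ass1 windows matched none of the letters searched. The strict C/EBP form, the cAMP response element, the HNF4 letters and TATAAA were in none of the 5 windows and in 0.183%, 1.79%, 0.475% and 13.6% of all windows. G and C made up 44.3% of the Otc window, 57.3% of the Got1 window and 64.3% of the Glul window, against a median of 52.7% over all windows. A match is a run of letters and not a measured binding site.

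In KO mice without dietary cysteine Otc mRNA averaged 169 ± 52.4 CPM (SD, n = 3), and the means of the other 5 groups ran from 353 to 409.2 CPM. In CPM, its levels were 223, 118 and 167 in KO no-Cys. They were 359, 423, 419 and 429 in WT no-Cys, and 341, 339, 395 and 362 in KO CTR. They were 399.8, 445 and 383 in WT CTR, 366 and 387 in WT no-Trp, and 326, 333, 365, 409.9 and 333 in KO no-Trp. Each of the 3 KO no-Cys libraries was below each of the other 18, whose lowest value was 326. Otc was 2.41-fold lower in KO no-Cys than in WT no-Cys (log2 fold change −1.27, SE 0.152, edgeR adjusted p = 7.74e-06). It was 2.12-fold lower than in KO CTR (−1.09, SE 0.151, adjusted p = 6.13e-05) and 2.09-fold lower than in KO no-Trp (−1.06, SE 0.146, adjusted p = 0.000109). These comparisons share the 3 KO no-Cys libraries, so they are not independent of each other. The means were 409.2 ± 32.2 CPM in WT CTR and 407 ± 32.7 in WT no-Cys (SD, n = 3 and n = 4), a log2 difference of −0.01 (SE 0.147, adjusted p = 0.992).

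**Figure D1:**
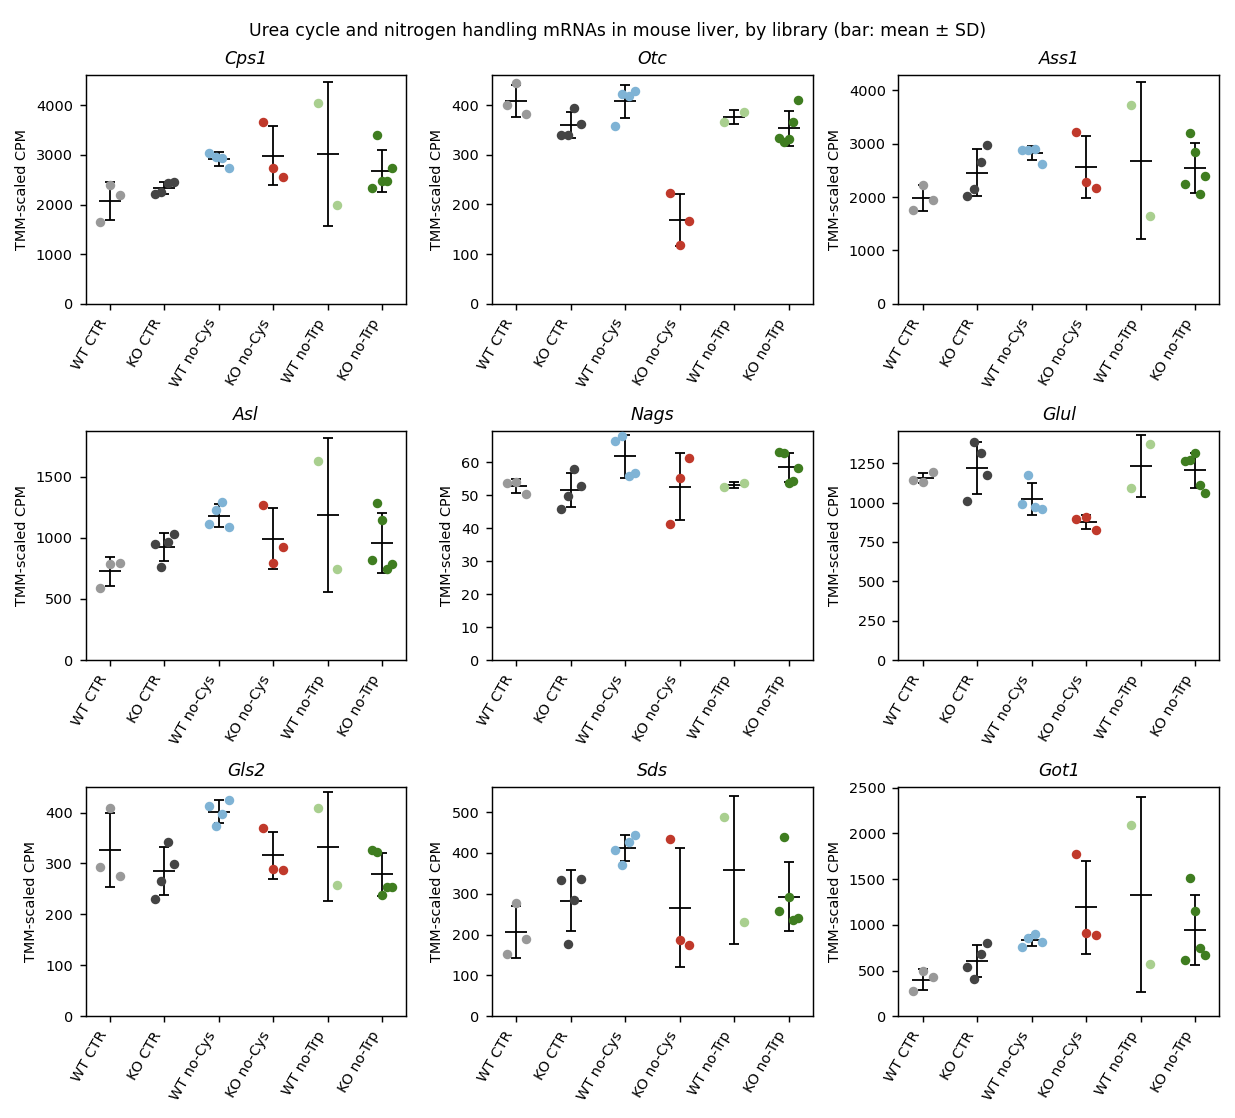
TMM-scaled CPM of each of the 9 genes (y axis, from 0) in each of the 21 libraries, by genotype and diet (x axis). Points are libraries and bars are the mean ± SD. For Otc the 3 KO no-Cys libraries lie at 118 to 223 CPM and the other 18 at 326 to 445, while for Cps1, Ass1 and Asl replicate 1 of WT no-Trp lies far above replicate 2 and the KO no-Cys libraries lie within the range of the other 18.

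The test of a difference between differences bore on whether the fall depended on both the genotype and the missing amino acid. The effect of removing cysteine on Otc was lower in KO than in WT by 1.08 on the log2 scale (value −1.08, SE 0.210, edgeR adjusted p = 0.0041). The KO effect without cysteine differed from the KO effect without tryptophan by −1.18 (SE 0.223, adjusted p = 0.0036). Otc was the one member called in either test, against 7.44% and 6.35% of all tested genes called in them. All 5 Otc calls were kept in each of the 28 alternatives run for each, with the adjusted p of the first comparison between 8e-15 and 0.00101 and its log2 fold change between −1.52 and −1.06. The remaining test, the effect of removing tryptophan in KO minus that in WT, called 0 members and 0 of all tested genes (0%) in edgeR, with 0 members at an unadjusted p under 0.05. DESeq2 called 0 members and 0.131% of all genes, and limma-voom 0 members and 0%.

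The fall of Otc was also seen within a library, where no scaling enters. The Otc count was 6.07%, 4.33% and 6.51% of the Cps1 count of the same library in KO no-Cys replicates 1, 3 and 4, and 9.04% to 24.3% (median 14.9%) in the other 18 libraries. Against Ass1 it was 5.18% to 7.67% in KO no-Cys and 9.85% to 23.6% elsewhere, and against Asl 14.9% to 18.1% and 22.5% to 67.7%. These percentages are not corrected for gene length and serve only to compare libraries.

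The summed hepatocyte markers were also low in KO no-Cys replicates 3 and 4. Alb made up 54.2% to 77.8% of the sum in each library. Alb was at 21620 to 44750 CPM in KO no-Cys and 33000 to 73110 CPM elsewhere, and Ttr at 3148 to 4197 against 5047 to 8340 CPM. Hnf4a (660 to 777 against 517 to 967 CPM) and Apob (2883 to 3412 against 2116 to 3496 CPM) lay within the range of the other libraries. The library with the lowest Otc, KO no-Cys replicate 3, also had the lowest marker sum, and 4 of the 7 markers tested were lower in KO no-Cys than in WT no-Cys. As a percentage of the summed marker CPM, Otc stood at 0.296% to 0.377% in KO no-Cys and at 0.382% to 0.640% in the other 18 libraries, so the gap between the highest KO no-Cys library and the lowest other library was narrow on this scale. Cps1 stood at 5.52% to 6.84% in KO no-Cys and at 1.999% to 4.69% in the others. In liver homogenate, fewer hepatocytes and less of an mRNA in each hepatocyte cannot be told apart. Of the markers of other cells, 2 of 6 endothelial, 2 of 5 cholangiocyte, 3 of 5 erythroid and 1 of 2 tested adipocyte genes were lower in KO no-Cys than in WT no-Cys. Of the tested leukocyte and stellate cell genes, 0 of 8 and 0 of 6 were called. Among all genes tested, 13.4% were lower in this comparison. The ranges of the summed levels were 95.4 to 103.9 against 106 to 157 CPM for endothelial, 16.1 to 18.1 against 34.2 to 57.8 CPM for cholangiocyte and 128 to 158 against 183 to 374 CPM for erythroid markers. The part of these shifts in the Otc result was not tested.

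**Figure D2:**
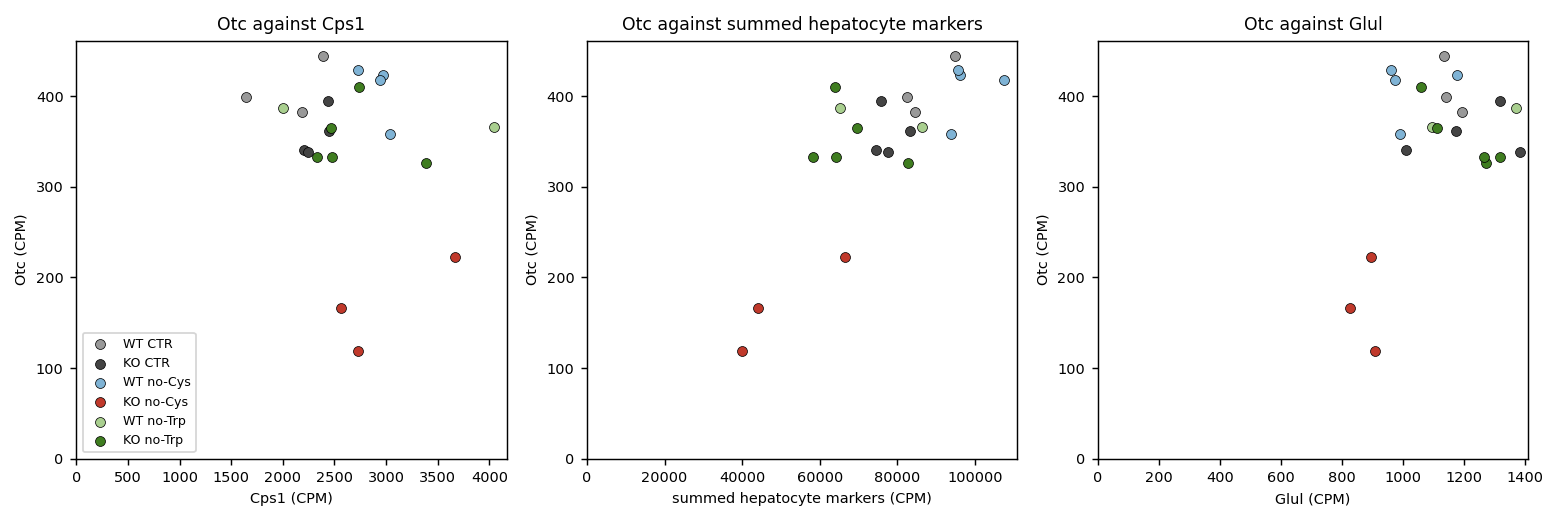
Pairs of measurements in the 21 libraries, both axes in TMM-scaled CPM from 0, with 1 point per library coloured by group. Left, Otc against Cps1; middle, Otc against the summed hepatocyte markers; right, Otc against Glul. The 3 KO no-Cys points lie below all others in Otc at Cps1 levels (2561 to 3670 CPM) that other libraries share, at hepatocyte marker sums of 39910 to 66510 CPM, and to the left of all others in Glul.

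The genes with a pattern most like Otc over the 21 libraries, by Pearson correlation of log2 CPM, were Tcea3 (r = 0.954), C1s1 (r = 0.951) and Mup3 (r = 0.942). Each was lower in all 3 KO no-Cys libraries than in any other library. For instance, Tcea3 was at 18.8 to 34.2 against 57.2 to 101 CPM, and Mup3, a major urinary protein, at 2563 to 4460 against 5998 to 11480 CPM. The 3 genes were picked by their likeness to Otc, and 3.88% of all genes tested had the same separation. After the group means were subtracted the correlations with Otc were 0.679 for Tcea3, 0.726 for C1s1 and 0.771 for Mup3.

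The other mitochondrial members were not called. Cps1 (chr1:67123026-67231259) was at 3670, 2729 and 2561 CPM in KO no-Cys and at 2727 to 3035 CPM in WT no-Cys, with a log2 fold change of 0.03 (SE 0.189, edgeR adjusted p = 0.91). Against KO CTR, at 2208 to 2446 CPM, Cps1 differed by 0.36 (SE 0.189, adjusted p = 0.196). With 1 library left out this difference ran from 0.18 to 0.46. Nags (chr11:102145513-102149477), the least abundant member, was at 41.3 to 61.1 CPM in KO no-Cys and 55.8 to 68.0 in WT no-Cys (−0.23, SE 0.117, adjusted p = 0.151). Of the cytosolic members, Ass1 (chr2:31470207-31520672) overlapped between these groups, at 2175 to 3222 CPM in KO no-Cys and 2623 to 2905 CPM in WT no-Cys. Asl (chr5:130011258-130029247) overlapped as well, at 792 to 1269 and 1090.2 to 1295 CPM. The log2 differences of Ass1 and Asl were −0.14 (SE 0.217, adjusted p = 0.653) and −0.25 (SE 0.231, adjusted p = 0.445).

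In KO no-Cys against WT no-Cys, edgeR called 1 of the 9 genes, Otc, and 28.2% of all genes tested. The median log2 fold change of the 9 was −0.23, against −0.02 over all genes, and 7 of the 9 values were negative. Gls2 (chr10:128194457-128210004) was at 288 to 369.9 CPM in KO no-Cys and 373 to 424 in WT no-Cys (−0.35, SE 0.174, adjusted p = 0.143). Sds (chr5:120476526-120483932) was at 433, 188 and 176 CPM in KO no-Cys and 371 to 444 CPM in WT no-Cys (−0.64, SE 0.318, adjusted p = 0.141). Of the KO no-Cys animals, replicate 1 was within the WT no-Cys range and the other two were below it. Without replicate 1, Sds was called at a log2 fold change of −1.18, and 2 members and 27.1% of all genes were called.

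Within the KO genotype, removal of cysteine was compared with the control diet and with removal of tryptophan, and 2 members were called in each comparison, Otc and Glul, against 20.2% and 13.9% of all genes. Glutamine synthetase was lower. Glul (chr1:153899944-153909723) was at 895, 906 and 826 CPM in KO no-Cys, at 1008, 1382, 1316 and 1173 in KO CTR and at 1269.7, 1317, 1109, 1058 and 1264 in KO no-Trp. No KO no-Cys library reached the lowest of these 9. The log2 fold changes were −0.48 (SE 0.121, edgeR adjusted p = 0.00854) against KO CTR and −0.46 (SE 0.116, adjusted p = 0.012) against KO no-Trp. The latter was lost without KO no-Cys replicate 3 or 4, with the highest adjusted p at 0.0643. As a percentage of the summed hepatocyte markers Glul did not set KO no-Cys apart, at 1.34% to 2.27% against 1.35% to 1.78% in KO CTR and 1.53% to 2.26% in KO no-Trp. Markers lower in KO no-Cys than in KO CTR were 4 of 7 hepatocyte, 3 of 5 erythroid, 1 of 6 endothelial, 1 of 6 stellate cell and 1 of 5 cholangiocyte genes, and those lower than in KO no-Trp were 2 hepatocyte, 3 endothelial, 2 of 8 tested leukocyte and 1 cholangiocyte genes. Their part in the Glul result was not tested. With library totals alone as the scaling, Glul missed the threshold against KO CTR at an adjusted p of 0.0555. Against WT no-Cys, at 989, 1177, 973 and 959 CPM, the difference of −0.23 (SE 0.120) had an adjusted p of 0.168.

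**Figure D3:**
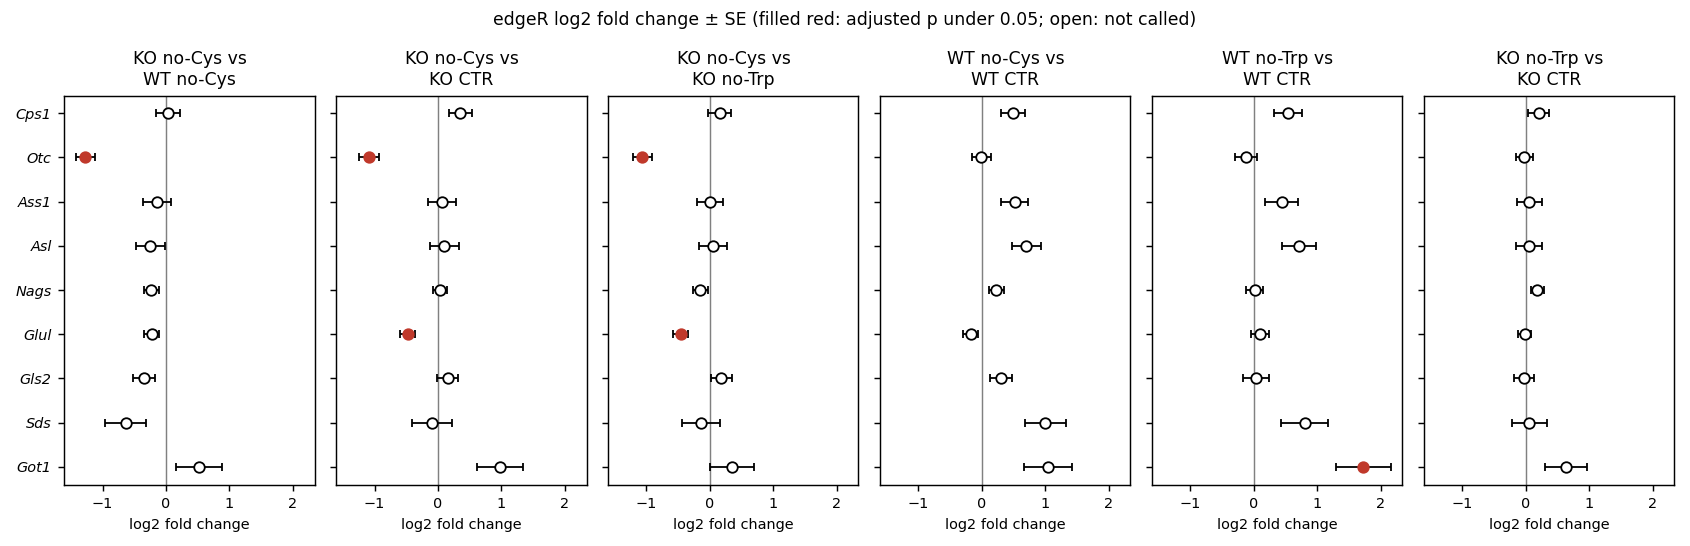
log2 fold changes from edgeR (x axis) with their SE for the 9 genes (rows) in 6 comparisons (panels). Filled red points passed an adjusted p of 0.05 and open points did not. Otc is the one filled point in the first panel (−1.27), and Otc and Glul are filled where KO no-Cys was compared with KO CTR and with KO no-Trp.

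Got1 was not called in either comparison within KO mice. It was at 1780, 908 and 892 CPM in KO no-Cys and at 539, 403, 685 and 796 CPM in KO CTR, a log2 difference of 0.98 (SE 0.365, edgeR adjusted p = 0.0635). It passed the threshold in 6 of 28 alternatives, among them library totals alone (0.0232), a test without the filter (0.0367) and a fit of these groups alone (0.0437), and the adjusted p ran from 0.0232 to 0.325. Against KO no-Trp the difference was 0.34 (adjusted p = 0.551). With 1 library left out, the difference ran from −0.06 to 0.58 against KO no-Trp and from 0.57 to 1.15 against KO CTR.

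In WT animals the same removal of cysteine gave higher values of most members, none of which passed the test. Between WT no-Cys and WT CTR, edgeR called 0 members and 0.661% of all genes. DESeq2 called 0 members and 2.55% of all genes, limma-voom 4 members and 3.71% of all genes, and a fit of these groups alone 4 members and 3.08% of all genes. In edgeR 5 members had an unadjusted p under 0.05. In 6 of the 9 genes the groups did not overlap, against 16.4% of all genes tested. Sds was at 412 ± 31.0 CPM in WT no-Cys (SD, n = 4), against 206 ± 64.0 in WT CTR (n = 3), a log2 difference of 1.00 (SE 0.321, adjusted p = 0.149). Got1 (chr19:43499752-43524605) was at 831 ± 58.4 against 402 ± 110 CPM (1.05, SE 0.378, adjusted p = 0.205). Asl was at 1181 ± 96.4 against 725 ± 117 CPM (0.70, SE 0.234, adjusted p = 0.165). Cps1 and Ass1 differed by 0.49 and 0.52. The summed adipocyte markers did not overlap between these groups either, at 12.7 to 37.5 CPM in WT no-Cys and 3.48 to 6.16 CPM in WT CTR. Most of the sum was Plin4, at 11.8 to 30.1 against 3.02 to 5.92 CPM. Adipoq was at 0.817 CPM or less in WT no-Cys, and Lep was at 0. None of the 2 tested adipocyte genes was called, and the part of these markers in the values of the members was not tested. The median over the 9 genes was 0.49, against −0.01 over all genes. Otc and Glul were the members with negative values, −0.01 and −0.17. The WT no-Cys libraries were also the most alike of any group with more than 2 libraries in Cps1, Ass1, Asl, Gls2, Sds and Got1, with coefficients of variation of 4.56% (Cps1) to 8.16% (Asl).

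Without tryptophan, Got1 was called in WT animals, on 2 libraries that lay far apart. It was at 2088 CPM in replicate 1 and 574 in replicate 2, against 281, 498 and 426 in WT CTR. The log2 fold change was 1.73 (SE 0.435, edgeR adjusted p = 0.0356), the 1 call among the members, against 3.19% of all genes. Without WT no-Trp replicate 1 it was 0.52 and was not called, and it was also lost without any 1 of the 3 WT CTR libraries, with limma-voom (adjusted p = 0.177), in a fit of these groups alone (0.208) and with the replicate number as a block (0.114). Without WT no-Trp replicate 2, 4 members were called, Cps1, Ass1 and Asl beside Got1, and 4.85% of all genes, in a fit that takes the single remaining library to vary as the other groups do. The same library was the higher of the pair in Cps1 (4048 against 1998 CPM), Ass1 (3717 against 1639), Asl (1629 against 743), Gls2 (408 against 258) and Sds (488 against 231). Otc (366 against 387 CPM) and Nags (52.5 against 53.7 CPM) did not split in this way. Between WT no-Trp and WT CTR, 1 endothelial marker was higher, and 1 hepatocyte, 1 stellate cell and 1 erythroid marker were lower. Summed leukocyte markers were at 222 to 256 against 120 to 179 CPM, and stellate cell markers at 212 to 276 against 334 to 381 CPM. Adipocyte markers, most of them Plin4, summed to 9.6 to 22.3 against 3.48 to 6.16 CPM. The part of these shifts in the Got1 call was not tested.

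For KO CTR against WT CTR, KO no-Trp against WT no-Trp, and KO no-Trp against KO CTR, edgeR called 0 of the 9 genes, against 0.32%, 0.195% and 1.87% of all genes. DESeq2 also called 0 members in each (1.07%, 0.816% and 4.68% of all genes), as did limma-voom (0.598%, 0.0418% and 4.24%), and no member had an unadjusted p under 0.05 in edgeR. Got1 had the largest absolute difference in all 3, with log2 fold changes of 0.59 (SE 0.373), −0.50 (SE 0.394) and 0.63 (SE 0.327), and in KO no-Trp it ranged from 619 to 1511 CPM. The second of these rested on the WT no-Trp pair, being 0.71 without its replicate 1 and −1.15 without its replicate 2. Otc differed by −0.19 (SE 0.146), −0.09 (SE 0.160) and −0.02 (SE 0.129) in these comparisons.

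Within groups, 5 of the 9 genes varied together from animal to animal. After each group mean was subtracted on the log2 scale, the 10 pairwise correlations among Cps1, Ass1, Asl, Sds and Got1 over the 21 libraries lay between 0.794 and 0.959 (median 0.881), the highest being Asl with Got1. Otc correlated with these 5 at 0.187 to 0.352, Gls2 at 0.542 to 0.708, Nags at −0.366 to −0.090 and Glul at −0.261 to −0.052. The 5 genes were grouped by these same correlations, so high values among them follow in part from that choice. The points share library and depth. The WT no-Trp pair spanned 2.03-fold (Cps1) to 3.63-fold (Got1) in the 5 genes. Correlations without that pair, and a range over other genes, are not given. In most groups 1 library was the highest in several members. It was replicate 1 in KO no-Cys (7 of the 9 genes), WT no-Trp (6) and KO no-Trp (5), replicate 2 in WT CTR (7) and replicate 4 in KO CTR (5), whereas in WT no-Cys no library was the highest in more than 3. Replicate 1 was the lowest in 5 genes in WT CTR and in 5 in KO CTR. From the lowest to the highest library of a group, Got1 spanned 3.63-fold in WT no-Trp and 2.44-fold in KO no-Trp, the widest of the 9 genes there, while in KO no-Cys Sds spanned 2.47-fold and Got1 1.996-fold.

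**Figure D4:**
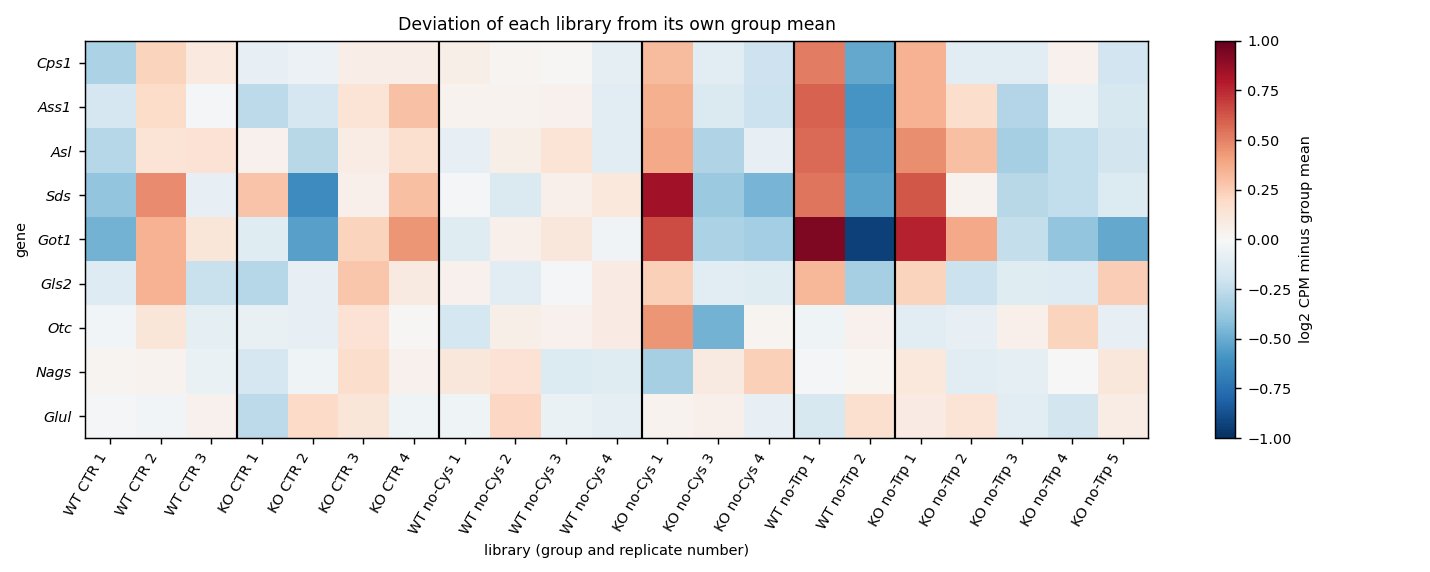
Deviation of log2 CPM from the mean of the library's own group, for the 9 genes (rows) in the 21 libraries (columns, ordered by group and replicate number, groups divided by black lines). Red is above and blue below the group mean. The upper 5 rows change colour together, most of all in KO no-Cys 1, WT no-Trp 1 and 2 and KO no-Trp 1, while Otc, Nags and Glul stay near their group means in the WT no-Trp and KO no-Trp libraries.

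Tat, tyrosine aminotransferase and a target of glucocorticoids and glucagon, was the gene most like Asl over the 21 libraries (Pearson r = 0.918), and the within-group correlation of the pair was 0.907. Tat stood at 8210 and 1944 CPM in WT no-Trp replicates 1 and 2, at 5059, 3540 and 3144 CPM in KO no-Cys and at 5048, 4644, 1372, 1763 and 1842 CPM in KO no-Trp replicates 1 to 5. Igfbp1, a hepatic insulin-repressed and fasting-induced gene, was at 1946 and 206 CPM in the WT no-Trp pair. Other fasting and glucagon targets did not split as widely there, with Cpt1a at 477 ± 1.55 CPM and Pck1 at 8023 ± 1629 CPM (SD, n = 2). Slc25a15, the mitochondrial ornithine carrier of the urea cycle, was among the 3 genes most like Got1 (r = 0.912, within groups 0.976), at 744 and 283 CPM in that pair. Otc had a within-group correlation of 0.008 with Tat. The part of feeding state in these values was not tested.

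The other members resembled different genes. Those most like Cps1 were Ncoa4 (r = 0.925), Got1 (0.902) and the predicted gene Gm6768 (0.894). Ass1 was nearest to Fh1 (0.934), fumarate hydratase, Sds to Etnk2 (0.893) and Got1 to Sorbs3 (0.916). Nags, Glul and Gls2 had weaker nearest genes, Slc26a11 (0.772), Hsd17b6 (0.801) and Hgsnat (0.831).

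Compared per kilobase of exon, the members spanned a wide range. In WT CTR the order of the levels was Ass1 at 819 ± 99.1 CPM per kilobase, Cps1 374 ± 69.4, Glul 348 ± 9.72, Got1 158 ± 43.5, Asl 150.1 ± 24.1, Sds 122 ± 37.8, Otc 96.5 ± 7.60, Gls2 93.9 ± 20.7 and Nags 18.6 ± 0.737 (SD, n = 3). Within the sum of their SDs, Cps1 and Glul, Got1 and Asl, Asl and Sds, Sds and Otc, and Otc and Gls2 could not be ordered, nor could Got1 and Sds, or Sds and Gls2. In KO no-Cys, Otc was at 39.9 ± 12.3 CPM per kilobase and Gls2 at 91.0 ± 13.4, and the sum of their SDs was smaller than the gap. Averaged over the 21 libraries, Ass1 was in place 60 and Nags in place 2093 of the 14313 genes ranked per kilobase. Between the highest and the lowest library the ratio was 7.42 for Got1, 3.77 for Otc, 3.20 for Sds and 1.65 for Nags. Reads in the 360 exonic bases that Sds shares with Plbd2 on the opposite strand, and in the 443 that Nags shares with the antisense gene Gm11586, cannot be assigned without the strand setting of the counting, which was not given in the sources used here. Shorter overlaps with genes on the opposite strand touch Sds (Gm15690, 141 bases), Glul (Teddm2, 116 bases) and Gls2 (Spryd4, 97 bases). Glul also shares 93 exonic bases with Mir8114 on the same strand, which no strand setting would separate.

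Around the cycle, lists of related genes were read in KO no-Cys against WT no-Cys, where 14.8% of all genes were higher and 13.4% lower. Of 8 tested carriers and accessory proteins of the cycle, 1 was lower and none higher. It was Car5a, the mitochondrial carbonic anhydrase that supplies bicarbonate to Cps1, which fell from 60.7 ± 10.6 CPM in WT no-Cys (n = 4) to 33.3 ± 8.16 CPM in KO no-Cys (n = 3; log2 fold change −0.87, SE 0.166, edgeR adjusted p = 0.000652). Of the 9 listed, Slc14a1 was filtered out as low. Of 16 genes of glutamate, glutamine and transamination, 5 were higher and 2 lower. The largest rises were in the path from glutamate to proline. Aldh18a1 was at 2.79 ± 2.56 against 0.305 ± 0.214 CPM (3.24, SE 0.599, adjusted p = 0.000521). Pycr1 was at 3.39 ± 1.39 against 0.368 ± 0.0294 CPM (3.19, SE 0.374, adjusted p = 6.08e-06). Both genes were low in both groups, and the SD of Aldh18a1 in KO no-Cys was close to its mean. Gpt2, the mitochondrial alanine aminotransferase, was at 1139.5 ± 126 against 799 ± 15.6 CPM (0.51, SE 0.143, adjusted p = 0.0113). The mitochondrial partner of Got1, Got2, rose by 0.36 (SE 0.0865, adjusted p = 0.00419), and glutamate dehydrogenase, Glud1, fell by 0.49 on the log2 scale (SE 0.151, adjusted p = 0.0205). Got2 and Glud1 were named after their values were seen.

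Carbamoyl phosphate is also the start of pyrimidine synthesis, made there by Cad. Of 6 genes of pyrimidine synthesis and breakdown, 3 were higher, all of synthesis, and 1 lower. Cad was at 16.0 ± 4.79 against 7.56 ± 1.01 CPM (1.09, SE 0.216, adjusted p = 9e-04) and Dhodh at 12.4 ± 1.05 against 8.19 ± 0.741 CPM (0.59, SE 0.137, adjusted p = 0.00326), while Dpyd, which starts pyrimidine breakdown, was at 191 ± 63.8 against 373 ± 34.3 CPM (−0.96, SE 0.179, adjusted p = 0.000528). Of 7 genes of creatine and polyamine synthesis, which draw on arginine and ornithine, 2 were higher and 2 lower. Odc1, ornithine decarboxylase, was at 127 ± 37.5 against 43.9 ± 3.90 CPM (1.53, SE 0.221, adjusted p = 5.05e-05) and Srm, spermidine synthase, at 79.9 ± 18.05 against 39.9 ± 7.85 CPM (1.00, SE 0.187, adjusted p = 0.000568). Gatm, which makes the creatine precursor from arginine, was low throughout, at 1.86 ± 0.283 against 3.59 ± 0.603 CPM (−0.91, SE 0.270, adjusted p = 0.0156).

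Of 23 tested genes of amino acid breakdown, 3 were higher and 8 lower, with a median log2 fold change of −0.25. The largest were Uroc1 of histidine breakdown (320 ± 98.0 against 571 ± 56.5 CPM, −0.83, SE 0.162, adjusted p = 0.000764), Hgd of tyrosine breakdown (−0.59, SE 0.152, adjusted p = 0.00697) and Prodh2, hydroxyproline dehydrogenase (−0.55, SE 0.134, adjusted p = 0.00485). Of 12 transcription factors and receptors known to act on these genes, none was higher and 3 were lower, Cebpb (178 ± 45.0 against 306 ± 68.2 CPM, −0.78, SE 0.244, adjusted p = 0.0224), Klf15 (−0.59, SE 0.169, adjusted p = 0.0135) and Nr3c1, the glucocorticoid receptor (−0.45, SE 0.114, adjusted p = 0.00566). Of 8 fasting and glucagon targets, Pck1 was lower (−0.64, SE 0.154, adjusted p = 0.0043) and Cpt1a higher (0.44, SE 0.132, adjusted p = 0.0177).

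Because the cycle is periportal and Glul pericentral, genes of both zones were listed. Of 10 periportal genes 1 was higher and 5 lower, led by Pigr (486 ± 179 against 1414 ± 245 CPM, −1.54, SE 0.196, adjusted p = 1.39e-05), Ctsc (−1.31, SE 0.237, adjusted p = 0.000429) and Cyp2f2 (408 ± 44.6 against 873 ± 154 CPM, −1.10, SE 0.1502, adjusted p = 2.89e-05). Of 12 pericentral genes 1 was higher and 2 lower, Cyp1a2 at 1402 ± 96.2 against 717 ± 97.3 CPM (0.97, SE 0.232, adjusted p = 0.00418), Cyp27a1 at −0.48 (SE 0.161, adjusted p = 0.0305) and Gulo at −0.46 (SE 0.147, adjusted p = 0.0246). The medians of these lists were −0.46 and 0.13, against −0.02 for all genes. These counts stand beside 28.2% of all genes called in this comparison.

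In KO no-Cys against KO CTR, where 10.6% of all genes were higher and 9.59% lower, the lists had 0 higher and 1 lower of 8 carriers, 5 and 2 of 16 glutamate genes, 3 and 1 of 6 pyrimidine genes, 2 and 1 of 7 creatine and polyamine genes, 1 and 3 of 23 breakdown genes, 1 and 0 of 12 regulators, 0 and 0 of 8 fasting targets, 1 and 4 of 10 periportal and 2 and 1 of 12 pericentral genes. In KO CTR against WT CTR and in KO no-Trp against WT no-Trp no gene of any of these lists was called.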

How the data were processed

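Liver RNA was made into poly(A) libraries by the authors, sequenced from both ends, aligned to GRCm38 with HISAT2 2.1.0 and counted per gene with HTSeq 0.11.0 (versions from the submitters' processing notes). The deposited values are raw integer counts per Ensembl gene, with no normalization. The annotation release and strand setting are not given in the sources used here. Of the 46078 identifiers, 935, holding 0.0715% of the counts, were not in GENCODE M21, which gave symbols and coordinates. 1 column matched no sample and was not used.

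Groups and replicate numbers came from the sample titles. filterByExpr (count of at least 10, total of at least 15) kept 14370 genes. In edgeR 4.0.16 (R 4.3.3; TMM factors 0.883 to 1.14) all 21 libraries entered 1 model with a mean per group, and quasi-likelihood F-tests, two-sided, gave 11 contrasts. Each adjusted p is the Benjamini-Hochberg value over all tested genes, called under 0.05, unless another tool is named. SE is the absolute log2 fold change divided by the square root of F. Alternatives were DESeq2 1.42.0 (Wald test), limma-voom 3.58.1 with quality weights, RLE size factors, library totals alone, no filter, a block for the replicate number, a fit of the compared groups alone, and leaving out each library. The script was tested on simulated data.

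Levels are TMM-scaled CPM, and levels of different genes were compared per kilobase of exon union. The members and lists were chosen with earlier results of these data known. The rule chose 10 members, and the text and every count over members cover 9 of them. The other member and 2 listed genes are not reported here. The text names these 9. For each list it names the 3 called genes with the largest absolute log2 fold change in KO no-Cys against WT no-Cys. For each member it names the genes with the highest correlation (up to 3). Got2, Glud1 and Igfbp1 were named outside this rule. Markers were summed as CPM. No pair of libraries was identical. Total counts were 8889951 to 27230852 per library.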

Additional observations from a re-analysis of the deposited data

Results flagged for a closer look

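In groups of 4 or 5 animals, 4 of the 27 gene and group combinations tested with Dixon's ratio had 1 library far from the others, where chance gives about 1 in 20. Otc in WT no-Cys replicate 1 was at 358.8 CPM, against 418.5 to 429.3 in the other 3. Ass1 in WT no-Cys replicate 4 was at 2623 CPM, against 2886 to 2905. Glul in WT no-Cys replicate 2 was at 1177 CPM, against 958.6 to 989.2. Sds in KO no-Trp replicate 1 was at 438.9 CPM, against 235.6 to 291.1.

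A pair of differences between groups passed a test of the difference itself, both for Otc. The effect of removing cysteine in KO minus that in WT was −1.08 on the log2 scale (SE 0.210, edgeR adjusted p = 0.0041), with means of 169 ± 52.4 (KO no-Cys), 359 ± 26.1 (KO CTR), 407 ± 32.7 (WT no-Cys) and 409.2 ± 32.2 CPM (WT CTR). The KO effect without cysteine minus that without tryptophan was −1.18 (SE 0.223, edgeR adjusted p = 0.0036), with means of 376 ± 14.5 CPM in WT no-Trp and 353 ± 35.1 CPM in KO no-Trp.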

How the results depend on the processing

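Of 2772 single gene values under the alternatives, 2737 stayed on their side of the threshold, 25 passed it newly and 10 no longer passed. In all, 120 of these values changed sign, none of them called in edgeR or under the alternative. The number of members called moved as follows. In KO no-Cys against WT no-Cys (1 in edgeR) it was 3 with limma-voom (Otc, Gls2, Sds; 37.3% of all genes called), 2 with only these groups (31.9%), and 1 to 2 with 1 library left out. In WT no-Cys against WT CTR (0) it was 4 with limma-voom (3.71%), 4 with only these groups (3.08%) and 0 to 0 with 1 library left out. In WT no-Trp against WT CTR (1) it was 0 with limma-voom (0.223%), 0 with only these groups (0.0226%) and 0 to 4 with 1 library left out. In the interaction of cysteine removal and genotype (1) it was 3 with limma-voom (15.2%) and 1 to 2 with 1 library left out. In KO no-Cys against KO CTR (2) it was 3 with library totals alone (22.5%), with no filter (8.96%) and with only these groups (17.9%), Got1 being called in each. It was 2 to 3 for this comparison and 1 to 2 against KO no-Trp (2) with 1 library left out. For KO CTR against WT CTR, KO no-Trp against WT no-Trp, KO no-Trp against KO CTR and the interaction of tryptophan removal it was 0 to 0, and 1 to 1 for the KO effect without cysteine minus without tryptophan. The causes of these changes were not tested. For most fits with 1 library left out the share of all genes called is not given. The ranges from those fits are therefore not read as results about the members.

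Replicate numbers did not pair the samples: over 41 same-numbered pairs the median correlation of deviations was −0.0346 (−0.355 to 0.353), 9 exceeded 0.1, and 7 of 20 libraries correlated best with their own number. With the replicate number as a block, Got1 was no longer called in WT no-Trp against WT CTR. Otc and Glul stayed called in KO no-Cys against KO CTR and against KO no-Trp, Glul at edgeR adjusted p of 0.0175 and 0.0415. The block changed no other call of a member. With library totals alone as the scaling, Cps1 and Got1 were called in KO no-Cys against KO CTR (adjusted p = 0.04 and 0.0232) and Glul was not (0.0555). WT no-Trp had only 2 libraries, which limits what its comparisons can show.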
